A study of Mus musculus with 10 samples.

Results

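The ligands by which cells of the heart call in leukocytes and signal inflammation were followed in hearts of 1 week old mice. They comprise Tnf and the genes named as C-C, C-X-C, X-C or C-X3-C chemokine ligands or as interleukins. They were chosen by gene name, with earlier results of these data known, and 1 further chemokine with such a name was left out. The ligands numbered 49 of 17575 genes that had a row in at least 1 of 3 deposited tables. Of these, 39 were in all 3 tables. The hearts came from 3 Ft1ko, 4 Ft1sm22ko and 3 WT animals, which the study describes as male. Ft1ko mice lost Ft1 throughout the body, since animals with a floxed Ft1 allele were crossed with a CMV-cre line. Ft1sm22ko mice carried the same floxed allele with an sm22-cre transgene, driven by the promoter of the smooth muscle gene Tagln, so that other cells of their hearts may keep Ft1. Whether the WT animals carried a floxed allele or a Cre is not given in the sources used here, nor is whether hearts came from the same litters.

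RNA was measured in whole cardiac tissue, and each table holds, for 1 pair of groups, a mean normalized count, a log2 fold change, the standard error of that change, and a Wald p from DESeq2. There is no value per heart, so the spread between hearts is known only through that standard error, and whether groups overlap cannot be said. Group means were worked out here from those columns and carry no error of their own. Fold changes run from each mutant over WT, and from Ft1sm22ko over Ft1ko where the mutants are compared, and a gene was called higher or lower where the p, adjusted by Benjamini-Hochberg over all genes of the table, was under 0.05. Each table has its own scaling, so that levels were set against each other within a table only. Aktip, which encodes Ft1, fell in each mutant without reaching 0. It had 174.5 normalized counts in Ft1ko hearts and 663.9 in WT hearts (log2 -1.93 ± 0.27, SE; adjusted p 5.08e-11), and 387 in Ft1sm22ko hearts and 894 in WT hearts (-1.21 ± 0.27, adjusted p 1.07e-04). These values do not show which part of the gene the reads came from.

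Chemokines are small secreted proteins that bind receptors coupled to G proteins and draw leukocytes along a gradient. Interleukins and Tnf are cytokines that bind receptor chains on the cell surface, and several of them act through a shared chain, such as the common gamma chain of the receptors for Il2, Il7 and Il15. In heart tissue Ccl2 is known for bringing in monocytes, Cxcl12 for guiding the growth of vessels, and Il33 for being held in nuclei and released as an alarm signal by damaged cells.

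Many of the ligands were close to the limit of what the sequencing could measure. A mean over both groups under 10 normalized counts was found for 20 of 46 ligands in the table of Ft1ko and WT, for 19 of 41 in that of Ft1sm22ko and WT, and for 18 of 49 in that of Ft1sm22ko and Ft1ko. Those shares were 43.5%, 46.3% and 36.7%, against 15.8%, 16.5% and 13.3% of all genes. There were 18 ligands under 10 in every table in which they had a row, 29 under 10 in at least 1 table, and 20 at 10 or more throughout. Among the ligands under 10 in the Ft1ko table were Tnf, Il1b, Il6, Il1a, Il12a, Il12b, Il13, Il17b and Il17f, and the chemokines Ccl3, Ccl7, Ccl12, Ccl17, Ccl19, Ccl20, Ccl28, Cxcl2, Cxcl5 and Cxcl11, with Il11 completing the 20. The table of Ft1sm22ko and WT had no row for Ccl17, Ccl20, Cxcl11, Il5, Il12a, Il12b, Il13 and Il17f, and that of Ft1ko and WT had none for Ccl4, Il2 and Il5.

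**Figure D1:**
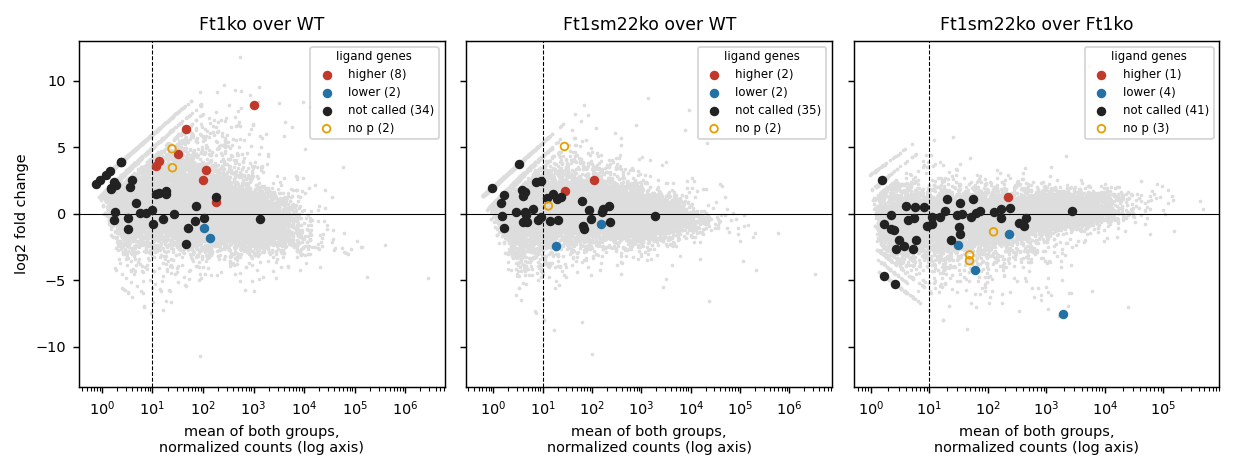
Mean of both groups (x axis, normalized counts, log scale) against the log2 fold change (y axis) in the 3 comparisons. Grey points are all genes with a p, large points are ligands coloured by call, open points are ligands with no p, and the dashed line marks a mean of 10. No ligand left of that line was called in any panel, and Cxcl15 lies farthest from 0 in Ft1ko over WT and in Ft1sm22ko over Ft1ko, at 8.14 and -7.55.

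The order of the ligands by level per kilobase of exon was led by Cxcl15 and Cxcl12 in Ft1ko hearts and by Cxcl12 in the other hearts. In the Ft1ko table Ft1ko hearts had 965 normalized counts per kb of Cxcl15, 139 of Cxcl12, 117 of Cxcl17 and 95.8 of Ccl6. WT hearts of that table had 188 per kb of Cxcl12, 94.4 of Il15, 89.3 of Il17d and 61.4 of Ccl27a. In the other comparison with WT, Ft1sm22ko hearts had 218 per kb of Cxcl12, 130 of Il17d, 84.3 of Cxcl16 and 80.9 of Il15, against 252, 120, 55.4 and 127 in WT hearts. Cxcl12 itself, the ligand of Cxcr4, was not called. It had 1138 normalized counts in Ft1ko hearts and 1533 in WT hearts (log2 fold change -0.43, 95% interval -1.03 to 0.17), and 1785 in Ft1sm22ko hearts and 2062 in WT hearts (-0.21, interval -0.85 to 0.43). Il17d, an interleukin of the Il17 family, had 91.8 in Ft1ko hearts and 113.8 in WT hearts, and 165 in Ft1sm22ko hearts and 152.9 in WT hearts, and was not called.

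In Ft1ko hearts 10 of the 44 ligands with a p were called (22.7%), 8 higher and 2 lower, where 35.7% of all genes tested were called, 19.7% higher and 16.1% lower. Called higher were Il33, Ccl6, Ccl11, Ccl22, Cxcl13, Cxcl15, Cxcl16 and Cxcl17, and called lower were Il15 and Ccl27a. With Bonferroni adjustment Il33 and Cxcl17 kept their calls and the other 8 did not. At an unadjusted p under 0.05 stood 13 ligands. The log2 fold change was above 0 in 31 of the 44, with a median of 1.48 beside 0.13 over all genes, but the ligands under 10 counts contributed 17 of those 31, and genes under 10 had a median of 1.25 in this table. None of the 20 ligands under 10 was called, against 11.4% of all genes under 10. Of the 24 ligands with a p and a mean of at least 10, 10 were called (41.7%), close to the 40.3% of all such genes. A mean of 10 can be reached through the higher group alone, so nothing is read from that share. The median standard error of the ligands was 1.10, against 0.42 for all genes, and a ligand with that error would have needed a log2 fold change of 2.60 to be called.

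In Ft1sm22ko hearts 4 of 39 ligands with a p were called (10.3%), where 32.2% of all genes were called, 16.2% higher and 16% lower. Il33 and Ccl2 were higher and Ccl27a and Cxcl14 were lower than in WT. The median log2 fold change was 0.26, beside 0.06 over all genes, and 6 ligands had an unadjusted p under 0.05. None of the 19 ligands under 10 was called (6.13% of all genes under 10), and 4 of 20 with a p and at least 10 were, beside 37.4% of such genes. Il33, higher, and Ccl27a, lower, were the 2 ligands called in the same direction in both mutants. Both comparisons use the same 3 WT hearts. With Bonferroni adjustment Il33 alone of the 4 kept its call.

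**Figure D2:**
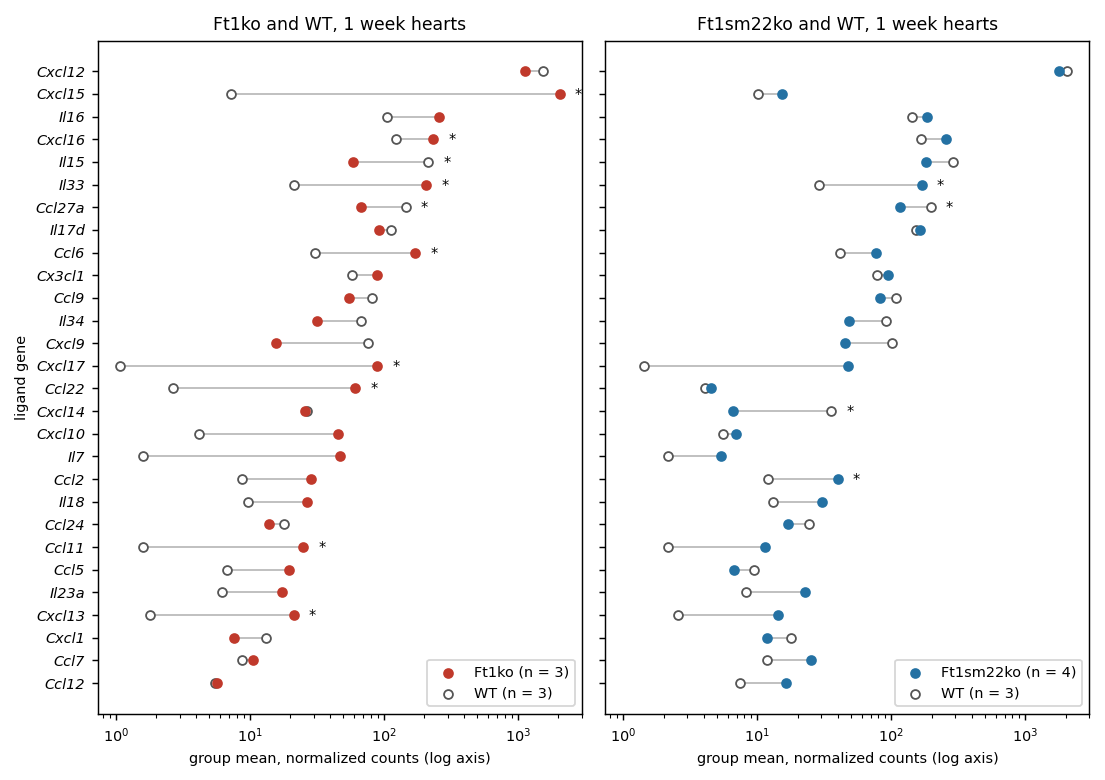
Group means in normalized counts (log axis) of the ligands with a mean of at least 10 in at least 1 of the comparisons with WT. Filled dots are Ft1ko (left, n = 3) or Ft1sm22ko (right, n = 4), open dots are WT (n = 3), asterisks mark an adjusted p under 0.05, and no error is drawn because no values per heart were given. Cxcl15 spans 2052 in Ft1ko and 7.29 in WT, and Il33 lies to the right of WT in both panels. Cxcl10 and Il7 (left) and Cxcl15 and Cxcl17 (right) have no p.

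Il33 was the ligand with the smallest p against WT in both mutants. In Ft1ko hearts it had 207 normalized counts, against 21.2 in WT hearts, a 9.77-fold increase (log2 3.29 ± 0.47, SE; adjusted p 1.65e-10). In Ft1sm22ko hearts it had 168 counts, against 28.8 in WT hearts, a 5.85-fold increase (2.55 ± 0.48, adjusted p 2.39e-06). Between the mutants the difference was -0.73 with an interval of -1.54 to 0.07 and was not called. RefSeq gives the mouse gene a pair of start sites, whose windows of 250 bases before and 50 bases after the start are shown because Il33 is called in both mutants. The first window lies at chr19:29924863-29925162 and the second at chr19:29945540-29945839 (GRCm38.p6, plus strand), both printed 5′ to 3′, with the 6 letters TATAAA in capitals.

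Il33 start 1: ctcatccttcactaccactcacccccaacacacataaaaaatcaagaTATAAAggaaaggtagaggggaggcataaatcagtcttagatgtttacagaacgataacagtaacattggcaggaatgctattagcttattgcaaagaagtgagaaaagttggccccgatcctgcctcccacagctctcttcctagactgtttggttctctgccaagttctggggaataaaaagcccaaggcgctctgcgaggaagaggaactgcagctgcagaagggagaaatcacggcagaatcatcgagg
Il33 start 2: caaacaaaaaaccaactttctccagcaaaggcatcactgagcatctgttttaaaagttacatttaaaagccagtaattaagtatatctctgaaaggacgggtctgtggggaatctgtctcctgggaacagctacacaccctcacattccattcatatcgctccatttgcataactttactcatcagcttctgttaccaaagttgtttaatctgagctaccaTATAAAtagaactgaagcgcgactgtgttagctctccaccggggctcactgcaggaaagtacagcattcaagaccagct

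The letters TATAAA, which a TATA box holds, stood at bases 48 to 53 of the first window and at bases 222 to 227 of the second. They were found on either strand in 15 of 41 windows of ligands, belonging to 14 genes, and in 13.6% of 32851 windows of all genes, which is a description of letters and not of a site in use. The tables do not separate transcripts, so which start the Il33 reads came from is not known.

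The other genes of the Il1 family, and Tnf and Il6, were not called, and of those named here Il1b, Tnf and Il6 had means under 10 in both comparisons with WT. Il1b, the main Il1 released by activated macrophages, had 7.60 counts in Ft1ko hearts and 7.48 in WT hearts, and 8.43 in Ft1sm22ko hearts and 10.03 in WT hearts. The intervals of its log2 change ran from -1.89 to 1.94 in Ft1ko and from -1.77 to 1.27 in Ft1sm22ko, which hold changes in either direction. Tnf, a cytokine that activates vessel walls and leukocytes, had 5.69 counts in Ft1ko hearts and 1.45 in WT hearts (log2 1.97 ± 1.39, adjusted p 0.274), and 6.19 in Ft1sm22ko hearts and 1.96 in WT hearts (1.66 ± 1.22, adjusted p 0.311). Il6, which acts through the shared chain Il6st, had 2.64 counts in Ft1ko hearts and 0.286 in WT hearts, and 5.49 in Ft1sm22ko hearts and 0.410 in WT hearts. The WT hearts together held 0.857 and 1.23 normalized counts of Il6 in these tables, under the floor of 3 set for a fold, and the adjusted p were 0.311 and 0.060. Il18, another alarm cytokine of the family, had 26.8 counts in Ft1ko hearts and 9.65 in WT hearts (1.48 ± 0.84, adjusted p 0.162), and 30.5 in Ft1sm22ko hearts and 13.1 in WT hearts (1.22 ± 0.84, adjusted p 0.272).

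Among the C-C chemokines that recruit leukocytes in inflammation, 2 of 10 with a p were higher in Ft1ko hearts, beside 19.7% of all genes. In Ft1sm22ko hearts 1 of 10 was higher, beside 16.2% of all genes, so nothing is read from these counts. Ccl6, made by myeloid cells in the mouse, had 172 counts in Ft1ko hearts and 30.5 in WT hearts (log2 2.50 ± 0.76, adjusted p 0.005), and 77.5 in Ft1sm22ko hearts and 41.1 in WT hearts (0.92 ± 0.58, adjusted p 0.227). Ccl11, or eotaxin, which attracts eosinophils, had 25.1 counts in Ft1ko hearts and 1.61 in WT hearts (3.97 ± 1.09, adjusted p 0.002). In Ft1sm22ko hearts Ccl11 had 11.4 counts, against 2.15 in WT hearts, with an adjusted p of 0.145. Ccl2 was the ligand of this group that was called in Ft1sm22ko hearts, at 39.8 counts, against 12.1 in WT hearts (1.72 ± 0.52, adjusted p 0.005). Its estimate in Ft1ko hearts was nearly the same, 28.5 counts against 8.77 in WT hearts (1.70 ± 0.79), with an adjusted p of 0.080. The direct comparison gave a log2 difference in Ccl2 of 0.08 between the mutants (interval -0.83 to 0.98), so the call in one mutant and not in the other does not show that they differ. The other genes of the group were not called against WT, with log2 fold changes of -0.56 to 1.52 in Ft1ko and of -0.51 to 1.14 in Ft1sm22ko. Ccl20 is left out of the range in Ft1ko, as WT hearts together held 0.811 normalized counts of it, under the floor of 3. Ccl2, Ccl7, Ccl11 and Ccl12 are neighbours on mouse chromosome 11, and so are Ccl6 with Ccl3, Ccl4, Ccl5 and Ccl9, and calls did not run through either cluster.

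Of the C-C chemokines that guide leukocytes in lymphoid tissue and skin, Ccl22 and Ccl27a were called, in opposite directions. Ccl22, a ligand of Ccr4 made by dendritic cells and in the thymus, had 61.3 counts in Ft1ko hearts and 2.68 in WT hearts (log2 4.52 ± 1.32, adjusted p 0.003), while Ft1sm22ko hearts had 4.50 and WT hearts 4.05 (adjusted p 0.958). Ccl27a, known in skin as a ligand of Ccr10 for T cells, fell to 67.9 counts in Ft1ko hearts, against 146 in WT hearts (-1.10 ± 0.35, adjusted p 0.008). In Ft1sm22ko hearts it fell to 116 counts, against 196 in WT hearts (-0.76 ± 0.24, adjusted p 0.007). Ccl27a overlaps Il11ra1 by 8 bases on the opposite strand, and Il11ra1, the receptor of Il11, also fell in Ft1ko hearts by 1.54 (455 counts, against 1326 in WT hearts; adjusted p 6.81e-04) and in Ft1sm22ko hearts by 1.03 (881 counts, against 1797 in WT hearts; adjusted p 0.011). The mouse genome holds near-identical copies of both genes, so how their reads were shared out is uncertain. Of its 3 RefSeq windows the third, at chr4:41770163-41770462 (GRCm38.p6, minus strand), held letters of motifs searched here and is shown because Ccl27a was the ligand lower in both mutants.

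Ccl27a start 3: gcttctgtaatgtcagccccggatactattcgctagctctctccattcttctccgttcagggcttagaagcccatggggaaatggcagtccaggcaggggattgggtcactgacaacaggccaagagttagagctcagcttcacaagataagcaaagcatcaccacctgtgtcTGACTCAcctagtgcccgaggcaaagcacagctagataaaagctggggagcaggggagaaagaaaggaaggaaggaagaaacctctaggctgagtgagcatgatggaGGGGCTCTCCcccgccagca

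The capitals mark TGACTCA at bases 174 to 180, a match to the AP-1 letters TGANTCA, and a match to the kB motif at bases 281 to 290. AP-1 letters were in 9 of the 41 windows of ligands and 7.81% of all windows, and kB matches in 8 of 41 and 8.46%. The letters TTCNNNGAA of STAT were in 3 of 41 windows and 8.30% of all, and matches to the interferon-stimulated response element in 3 of 41 and 3.44%. All motifs were searched on both strands, and windows were at hand for 34 of the 49 ligands.

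The C-X-C chemokines held the largest fold changes called in Ft1ko hearts. Cxcl15, or lungkine, is known in the mouse as a neutrophil attractant made by the epithelium of the lung. It had 2052 counts in Ft1ko hearts and 7.29 in WT hearts, with a wide error (log2 8.14 ± 2.87, interval 2.50 to 13.77, adjusted p 0.017). Cxcl17, a chemokine of mucosal surfaces, had 89.1 counts in Ft1ko hearts and 1.07 in WT hearts (6.37 ± 1.11, adjusted p 2.04e-07), the WT hearts together holding 3.22 normalized counts. In Ft1sm22ko hearts Cxcl15 had 15.2 counts and WT hearts 10.1, and Cxcl17 had 47.2 counts and WT hearts 1.42, with no p for either gene. DESeq2 withholds a p where a count in 1 library is extreme for its group. Markers of lung epithelium were also detected in these libraries. The summed level of 10 markers of that epithelium was 50474 in Ft1ko hearts and 473 in WT hearts. All 10 were called higher there, with Aqp5 and Sftpd under the floor of 3 in WT. The sum was 3903 in Ft1sm22ko hearts and 649 in WT hearts, where 8 of the 10 had no p. Of the 2 with a p, Aqp5, under the floor in WT, was called higher and Napsa was called lower. The part of that RNA in the Cxcl15 and Cxcl17 values was not tested.

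Cxcl13, which leads B cells into follicles, had 21.3 counts in Ft1ko hearts and 1.80 in WT hearts (log2 3.57 ± 1.15, adjusted p 0.008). In Ft1sm22ko hearts it had 14.3 counts and in WT hearts 2.58 (adjusted p 0.145). None of 5 B cell markers was called in Ft1ko, with sums of 176 in Ft1ko hearts and 230.2 in WT hearts. Cxcl16, a membrane-bound ligand of Cxcr6, had 233 counts in Ft1ko hearts and 124 in WT hearts (0.91 ± 0.35, adjusted p 0.030), and 255 in Ft1sm22ko hearts and 167 in WT hearts (0.61 ± 0.36, adjusted p 0.195). Cxcl14, a chemokine expressed in many resting tissues, fell to 6.63 counts in Ft1sm22ko hearts, against 35.5 in WT hearts (-2.42 ± 0.78, adjusted p 0.009). In Ft1ko hearts Cxcl14 had 25.7 counts and in WT hearts 26.7 (-0.06 ± 0.89).

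The interferon-induced chemokines Cxcl9, Cxcl10 and Cxcl11, ligands of Cxcr3, were not called at the threshold used here. Cxcl10 had 45.5 counts in Ft1ko hearts and 4.16 in WT hearts but no p, and 6.99 in Ft1sm22ko hearts and 5.52 in WT hearts (adjusted p 0.822). Cxcl9, named after its values were seen, lay on the other side of WT, at 15.7 counts in Ft1ko hearts and 75.8 in WT hearts (-2.27 ± 0.96, adjusted p 0.051). With the adjusted p of the deposited table (0.049), or with a minimum mean of 10 (0.045), it was called lower. Of the neutrophil attractants other than Cxcl15, Cxcl1, Cxcl2 and Cxcl5 had log2 fold changes of -1.14 to -0.30 in Ft1ko and of -0.64 to -0.59 in Ft1sm22ko, and none was called. Cx3cl1, or fractalkine, which endothelium displays, had 89.0 counts in Ft1ko hearts and 58.3 in WT hearts, and 93.8 in Ft1sm22ko hearts and 78.5 in WT hearts, and was not called.

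**Figure D3:**
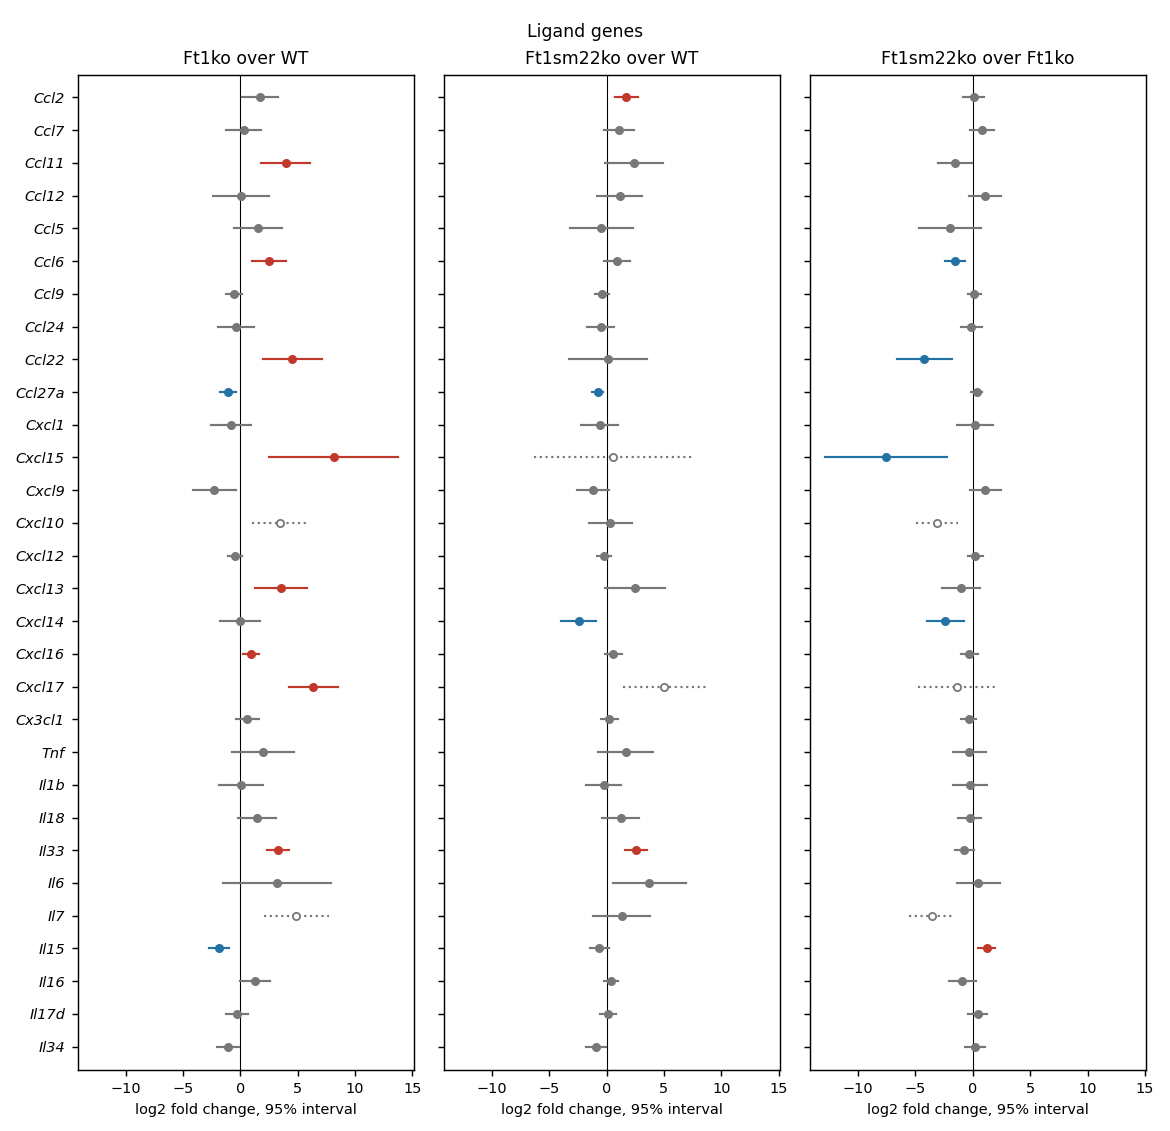
Log2 fold change (dots) with its 95% interval (lines) for ligands ordered by family, with Ft1ko over WT on the left, Ft1sm22ko over WT in the middle and Ft1sm22ko over Ft1ko on the right. Red is called higher, blue called lower, grey not called, and dotted lines with open dots have no p. Il33 is red in both comparisons with WT, Ccl27a is blue in both, and the interval of Cxcl15 runs from 2.50 to 13.77 in Ft1ko over WT.

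Il15 was the ligand that fell most in Ft1ko hearts among those called. It is presented to T cells and natural killer cells on the receptor chain Il15ra, and striated muscle is known to express it. It fell to 58.5 counts in Ft1ko hearts, against 213 in WT hearts (log2 -1.87 ± 0.44, adjusted p 1.61e-04). In Ft1sm22ko hearts it had 183 counts and in WT hearts 287 (-0.65 ± 0.42, adjusted p 0.245). Il15ra fell in both mutants, to 87.1 counts in Ft1ko hearts, against 401 in WT hearts (-2.20 ± 0.32, adjusted p 4.90e-10), and to 219.8 in Ft1sm22ko hearts, against 539.9 in WT hearts (-1.30 ± 0.32, adjusted p 4.98e-04). The 8 cardiomyocyte markers fell in Ft1ko hearts, with sums of 253776 in Ft1ko and 1354070 in WT, and 6 of the 8 fell in Ft1sm22ko hearts, with sums of 719450 in Ft1sm22ko and 1823160 in WT. In whole tissue, fewer cells of a type and less RNA per cell cannot be told apart, and the part of either in the Il15 and Il15ra values was not tested.

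Il7, which supports the survival of T cells and their thymic precursors, had 47.2 counts in Ft1ko hearts and 1.61 in WT hearts, with no p, and 5.40 in Ft1sm22ko hearts and 2.15 in WT hearts (adjusted p 0.450). Summed markers of the thymus were also higher in Ft1ko hearts than in WT hearts. The 10 markers of thymocytes and T cells summed to 6040 in Ft1ko hearts and 98.4 in WT hearts, with no p for any of the 10 and Dntt and Ptcra under the floor in WT. The 6 of thymic epithelium summed to 1992 in Ft1ko hearts and 34.5 in WT hearts, with no p for 5 of the 6. As a p is withheld where 1 library is extreme, these sums may rest on 1 library. In Ft1sm22ko hearts the markers of thymocytes and T cells summed to 179, against 133 in WT hearts. Of the 9 with a p, 1 was called higher, Dntt, which was under the floor in WT. Those of thymic epithelium summed to 406, against 45.9 in WT hearts, with 1 of 3 that had a p, Krt8, called higher. Ptcra, Aire, Foxn1 and Psmb11 had no row for Ft1sm22ko and WT. The part of such cells in the Il7 and Ccl22 values was not tested. Il16, known as a ligand of Cd4, had 259 counts in Ft1ko hearts and 106 in WT hearts (1.29 ± 0.67, adjusted p 0.125) and overlaps Stard5 on the opposite strand. Il34, a ligand of Csf1r beside Csf1 and named after its values were seen, had 31.8 counts in Ft1ko hearts and 67.5 in WT hearts (-1.09 ± 0.50, adjusted p 0.075), and 48.5 in Ft1sm22ko hearts and 91.4 in WT hearts (-0.92 ± 0.45, adjusted p 0.103).

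Set against each other, the mutants differed in 5 of the 46 ligands with a p (10.9%), where 19.8% of all genes differed, 10.8% higher and 9% lower in Ft1sm22ko. Ccl6, Ccl22, Cxcl14 and Cxcl15 were lower and Il15 was higher in Ft1sm22ko hearts than in Ft1ko hearts, and none of the 5 kept its call with Bonferroni adjustment. Cxcl15 had 23.7 counts in Ft1sm22ko hearts and 4447 in Ft1ko hearts (log2 -7.55 ± 2.70, adjusted p 0.031). Ccl22 had 6.91 counts in Ft1sm22ko hearts and 131 in Ft1ko hearts (-4.24 ± 1.22, adjusted p 0.006). Ccl6 had 126 counts in Ft1sm22ko hearts and 373 in Ft1ko hearts (-1.56 ± 0.43, adjusted p 0.004). The summed markers of lung epithelium were 6129 in Ft1sm22ko hearts and 109374 in Ft1ko hearts. Those of thymocytes and T cells were 290.04 in Ft1sm22ko hearts and 12995 in Ft1ko hearts. No p was given for 9 of the 10 thymocyte and T cell markers, so their sum may rest on 1 library. Cxcl15 and Ccl22 were lower in the group in which these sums were lower, and the part of such cells was not tested.

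Cxcl14 was lower in Ft1sm22ko hearts than in the hearts of either other group, and Il15 was higher in them than in Ft1ko hearts. Cxcl14 had 10.8 counts in Ft1sm22ko hearts and 56.3 in Ft1ko hearts (log2 -2.38 ± 0.81, adjusted p 0.022). Il15 had 297 counts in Ft1sm22ko hearts and 127 in Ft1ko hearts (1.22 ± 0.37, adjusted p 0.010), and 6 of the 8 cardiomyocyte markers were higher in Ft1sm22ko hearts as well. Cxcl10, Il7 and Cxcl17 had no p here. Cxcl10 stood at 11.4 counts in Ft1sm22ko hearts and 98.2 in Ft1ko hearts, Il7 at 8.73 in Ft1sm22ko hearts and 102 in Ft1ko hearts, and Cxcl17 at 74.4 in Ft1sm22ko hearts and 192 in Ft1ko hearts. The median log2 difference of the ligands was -0.35, beside -0.05 over all genes, 6 had an unadjusted p under 0.05, and none of the 18 under 10 counts was called (2.28% of all genes under 10), while 5 of 28 with a p and at least 10 were (22.5% of such genes).

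Beside the ligands, markers of leukocytes and of stromal cells were summed over each group. The 10 macrophage markers summed to 2306 in Ft1ko hearts and 2348 in WT hearts, and to 3044 in Ft1sm22ko hearts and 3156 in WT hearts, with 1 of 10, Adgre1, called higher in each mutant. The neutrophil markers summed to 1024 in Ft1ko hearts and 177 in WT hearts, with 4 of 7 that had a p called higher. They summed to 496 in Ft1sm22ko hearts and 239 in WT hearts, but 1 of 6 with a p, S100a9, was called lower and none higher. The median log2 fold change of the 7 with a row was -1.25 there, and 1 of them had no p. The fibroblast markers summed to 57276 in Ft1ko hearts and 19715 in WT hearts (5 of 7 higher), and to 77372 in Ft1sm22ko hearts and 26568 in WT hearts (7 of 7 higher). Mesothelial markers were higher in both mutants too, at 3595 in Ft1ko hearts and 559 in WT hearts, and at 5200 in Ft1sm22ko hearts and 754 in WT hearts, 5 of 6 being called each time. Mast cell markers summed to 871 in Ft1ko hearts and 333 in WT hearts (4 of 5 higher), and to 675 in Ft1sm22ko hearts and 450.2 in WT hearts (2 of 6 higher). Lymphatic endothelial markers summed to 1931 in Ft1ko hearts and 971 in WT hearts (3 of 6 higher, 1 lower), and to 1869 in Ft1sm22ko hearts and 1308 in WT hearts (4 of 6 higher). Fat markers summed to 2646 in Ft1ko hearts and 908 in WT hearts (4 of 6 higher), and to 1530 in Ft1sm22ko hearts and 1220 in WT hearts (2 of 6 higher). Smooth muscle markers summed to 13193 in Ft1ko hearts and 15335 in WT hearts (4 of 6 higher, 1 lower), and to 16012 in Ft1sm22ko hearts and 20673 in WT hearts (2 of 6 higher, 1 lower). The part of any of these cell types in the ligand values was not tested.

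The receptors and antagonists of these ligands, a list of 73 genes of which 70 were in the tables, gave 13 calls of 65 in Ft1ko hearts (20%, beside 35.7% of all genes), 10 higher and 3 lower. No p was given there for 4 more, Ccr9, Il2ra, Il12rb1 and Il17rb. Il2ra had 139 counts in Ft1ko hearts and 10.5 in WT hearts, Il12rb1 29.1 and 0.637, and Il17rb 55.7 and 4.14. In Ft1sm22ko hearts 14 of 64 were called (21.9%, beside 32.2% of all genes), 7 in each direction, which became 8 higher and 4 lower when fold changes were centred on the median of genes with a mean of at least 100. Called in the same direction in both mutants were 5 higher genes, Il18r1, Il1rl2, Il1rap, Il17re, which binds Il17c, and Ptprz1, described as a receptor of Il34, and 3 lower genes, Il15ra, Il11ra1 and Il10rb, a chain shared by receptors of the Il10 family. The call of Il10rb in Ft1sm22ko hearts (log2 -0.62 ± 0.25, adjusted p 0.039) was lost with that centring (adjusted p 0.061). Il20rb had the smallest p of the list in Ft1sm22ko hearts, at 53.0 counts, against 166 in WT hearts (-1.64 ± 0.36, adjusted p 7.00e-05). Il3ra fell there too, to 135 counts, against 453 in WT hearts (-1.75 ± 0.48, adjusted p 0.002). Neither was called in Ft1ko hearts (adjusted p 0.308 and 0.081). Il18r1, the receptor chain that binds Il18, had 232 counts in Ft1ko hearts and 16.9 in WT hearts (log2 3.77 ± 0.59, adjusted p 5.13e-09), and 124 in Ft1sm22ko hearts and 23.0 in WT hearts (2.43 ± 0.64, adjusted p 0.001). Il1rap, the accessory chain shared by the receptors of Il1 and Il33, had 105 counts in Ft1ko hearts and 48.2 in WT hearts (1.12 ± 0.39, adjusted p 0.016), and 145 in Ft1sm22ko hearts and 65.4 in WT hearts (1.15 ± 0.28, adjusted p 4.48e-04). Il1rl2, which binds Il36, had 46.1 counts in Ft1ko hearts and 7.77 in WT hearts (2.57 ± 0.70), and 60.5 in Ft1sm22ko hearts and 10.2 in WT hearts (2.56 ± 0.59). Il1rl1, the chain that binds Il33 itself, was not called, with 20.4 counts in Ft1ko hearts and 17.3 in WT hearts (adjusted p 0.768), and 14.1 in Ft1sm22ko hearts and 23.1 in WT hearts (adjusted p 0.395).

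None of the 15 chemokine receptors with a p was called in Ft1ko hearts against WT, beside 35.7% of all genes. Ccr9 had no p there, at 186 counts in Ft1ko hearts and 0.604 in WT hearts. The WT hearts together held 1.81 normalized counts of Ccr9, under the floor of 3, and its mean in Ft1ko hearts may rest on 1 library. In Ft1sm22ko hearts none of 14 was called against WT, beside 32.2% of all genes. Ccr4, Ccr6, Ccr8, Cxcr2, Cxcr3, Cxcr5, Cxcr6 and Xcr1 had means under 10 in Ft1ko over WT, where 11.4% of all such genes were called. Their lack of calls does not show that they did not change. Ccr2, the receptor of Ccl2, had 35.6 counts in Ft1ko hearts and 20.6 in WT hearts (log2 0.78 ± 0.51, adjusted p 0.233), and 29.9 in Ft1sm22ko hearts and 27.7 in WT hearts (0.11 ± 0.53, adjusted p 0.896). Cxcr6, Cxcr5 and Ccr4, which bind Cxcl16, Cxcl13 and Ccl22, had 4.19, 3.31 and 5.76 counts in Ft1ko hearts and 1.59, 2.92 and 1.69 in WT hearts, and Ccr3, which binds Ccl11, had no row. Ccr10, the receptor of Ccl27a, had no row for Ft1ko and WT. It had 0.474 counts in Ft1sm22ko hearts and 3.63 in WT hearts (adjusted p 0.260). Il1rn, the antagonist of Il1, was called higher in Ft1ko hearts at 19.5 counts, against 0.636 in WT hearts (adjusted p 0.003). The WT hearts together held 1.91 normalized counts of it, under the floor of 3, so no fold is given.

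Between the mutants 16 of 62 receptors and antagonists differed (25.8%, beside 19.8% of all genes), 13 lower and 3 higher in Ft1sm22ko hearts. Another 6 had no p, Ccr9, Il2ra, Il9r, Il12rb1, Il17rb and Il21r, all with lower means in Ft1sm22ko hearts. Ccr9 had 11.5 counts in Ft1sm22ko hearts and 400 in Ft1ko hearts, and Il2ra 11.9 and 300. Called lower were 4 of 15 chemokine receptors with a p, where 9% of all genes were lower. These were Cxcr4, the receptor of Cxcl12, Cxcr2, Ccr7 and Xcr1 (adjusted p 0.028, 0.010, 0.016 and 0.036), and none kept its call with Bonferroni adjustment. Il20rb was lower too (-1.09 ± 0.28, adjusted p 0.002). Il1rn had 2.58 counts in Ft1sm22ko hearts and 41.6 in Ft1ko hearts (log2 -4.01 ± 0.78, adjusted p 2.21e-05), and Il17ra, the common chain of the Il17 receptors, had 145 in Ft1sm22ko hearts and 739.5 in Ft1ko hearts (-2.35 ± 0.46, adjusted p 2.47e-05). Csf2rb, the shared chain for Il3 and Il5, had 86.9 counts in Ft1sm22ko hearts and 189 in Ft1ko hearts (-1.12 ± 0.26, adjusted p 4.12e-04). Il13ra1, Il10rb and Il6st were the 3 higher genes. Il6st, the signalling chain for Il6 and Il11, had 4359.95 counts in Ft1sm22ko hearts and 3004 in Ft1ko hearts (0.54 ± 0.17, adjusted p 0.011), and it was also higher in Ft1sm22ko hearts than in WT hearts, at 2714 counts against 1948 in WT (0.48 ± 0.15, adjusted p 0.006).

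**Figure D4:**
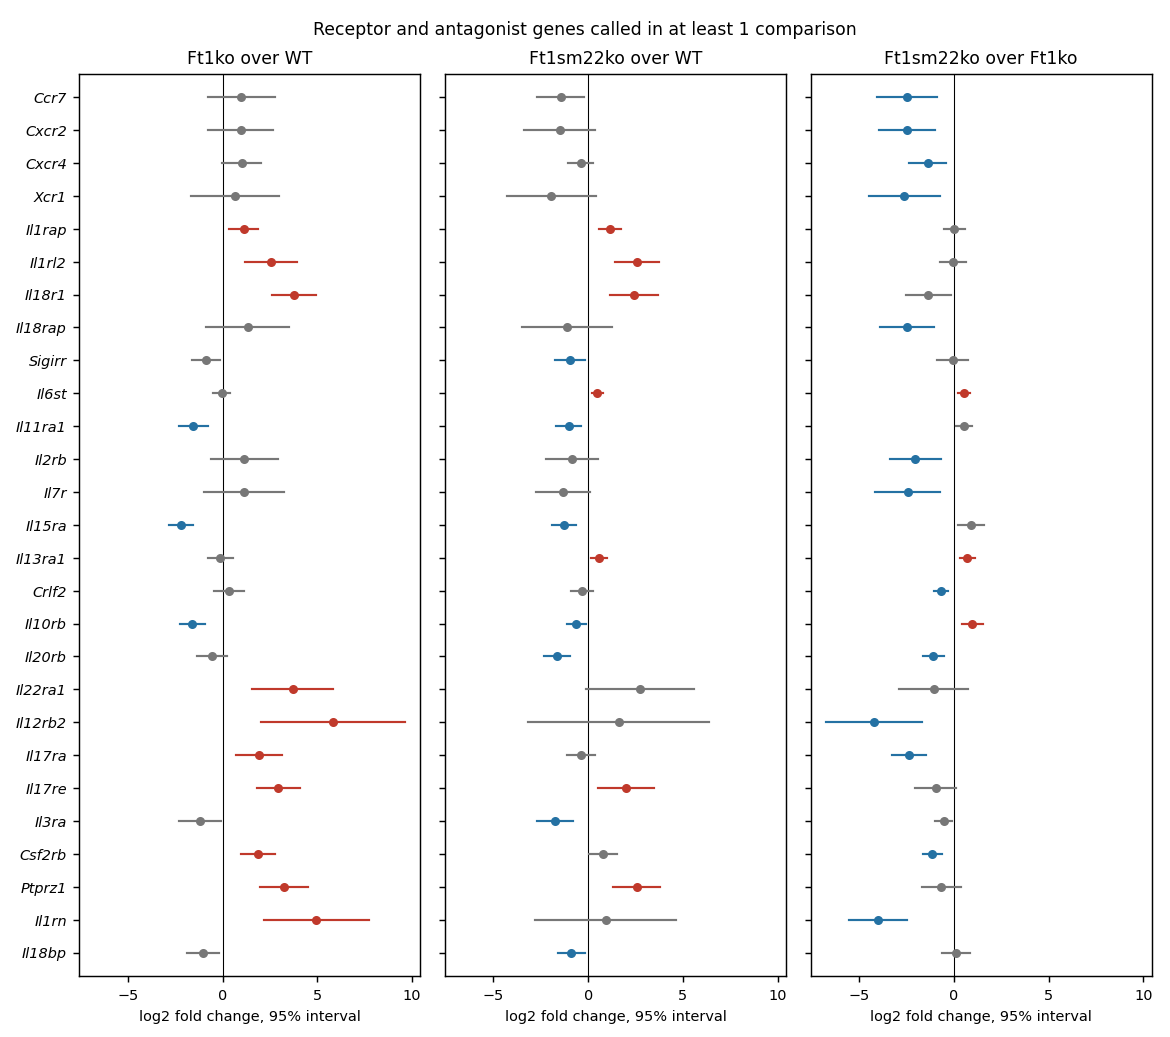
Log2 fold change (dots) with its 95% interval (lines) of the receptor and antagonist genes called in at least 1 of the 3 comparisons, with red for higher, blue for lower and grey for not called. Il18r1, Il1rl2, Il1rap, Il17re and Ptprz1 are red and Il15ra, Il10rb and Il11ra1 blue in both comparisons with WT. Il1rn lies at -4.01 in Ft1sm22ko over Ft1ko, and the points of Il1rn and Il12rb2 over WT rest on WT hearts that together held under 3 normalized counts of each.

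Some of the called ligands share their place with a gene on the opposite strand, and although the libraries keep strand (type fr-secondstrand), whether the counting made use of it is not given in the sources used here. Ccl2 overlaps Gm17268, Ccl6 overlaps E230016K23Rik, Cxcl16 overlaps Zmynd15 and Cxcl17 overlaps 4732471J01Rik, so that reads of the pairs may have been counted together.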

How the data were processed

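Hearts of 3 Ft1ko, 4 Ft1sm22ko and 3 WT mice of 1 week were sequenced by the authors with the Universal Plus mRNA-Seq kit on paired ends. The authors aligned reads with STAR to a reference that the study and the submitters' processing notes name hg38, although gene symbols are mouse, so no gene coordinate of the files was used. Reads per gene were counted with htseq-count, StringTie is named too, and the authors ran DESeq2 once for each of the 3 pairs of groups (no versions given). The deposited signal is the mean over both groups of counts divided by size factors. The deposited log2 fold change and its standard error, the deposited score, a Wald statistic, and the deposited p-value with its adjusted p are of the authors' DESeq2 fit. These columns are the results of the authors' comparisons and hold 1 value per gene, so that no model was fitted here, the depth of each library is unknown and no interval for it can be given.

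Signs were turned to mutant over WT and to Ft1sm22ko over Ft1ko, checked on Aktip. The p were adjusted here by Benjamini-Hochberg over the 16748, 16661 and 17169 genes that have one, with a threshold of 0.05. The p set each fold change against the spread between hearts of a group as DESeq2 estimates it, and which hearts were littermates is not given. Group means come from the mean signal, the fold change and the number of hearts, intervals of 95% from the standard error, and exon lengths and overlaps from GENCODE M21. The promoter windows are of RefSeq (GRCm38.p6). Named are all ligands called in a comparison, those the study names for inflammation, the 10 of highest level and those with no p. From the receptor list, genes with the smallest p in each direction, receptors of some described ligands and genes with no p are named. Members and lists were chosen with earlier results of these data known. A further chemokine that matches the naming pattern was left out and is not reported here. Alternatives were Bonferroni adjustment, the adjusted p of the deposited tables, a mean of at least 10 or 100, a log2 fold change of at least 1 and centring on the median. The scripts were tested on simulated data and ran in python 3.11.15 with pandas 2.3.3, numpy 2.4.6, scipy 1.17.1 and matplotlib 3.10.9.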

Additional observations from a re-analysis of the deposited data

Results flagged for a closer look

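The direct comparison of the mutants, a test of the difference itself, gave 5 ligands whose change against the shared WT hearts differed between them. The log2 difference, Ft1sm22ko over Ft1ko, was -7.55 for Cxcl15, -4.24 for Ccl22, -2.38 for Cxcl14, -1.56 for Ccl6 and 1.22 for Il15. Cxcl14 was called lower against WT in Ft1sm22ko hearts at -2.42 and not in Ft1ko hearts at -0.06. Il15 was called lower against WT in Ft1ko hearts at -1.87 and not in Ft1sm22ko hearts at -0.65.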

How the results depend on the processing

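The 19 calls of ligands were retained, gene by gene, with the adjusted p of the deposited tables and where the mean had to reach 10 normalized counts, each of which called 1 more ligand in Ft1ko, Cxcl9, and so 11, 8 higher and 3 lower. With Bonferroni adjustment, the study's own choice, 3 of the 19 remained, Cxcl17 and Il33 in Ft1ko and Il33 in Ft1sm22ko, so that the numbers of called ligands were 2 in Ft1ko over WT, 1 in Ft1sm22ko over WT and 0 in Ft1sm22ko over Ft1ko, and those of receptors and antagonists 5, 0 and 2. At an unadjusted p under 0.05 stood 6 ligands in Ft1sm22ko over Ft1ko and 19 receptors and antagonists in Ft1sm22ko over WT. With a mean of at least 100, which leaves 9, 7 and 11 ligands to test, 11 of the 19 remained and the counts were 6, 2 and 3 ligands and 6, 9 and 10 receptors and antagonists. The 8 calls it dropped were Ccl11, Ccl22, Cxcl13 and Cxcl17 in Ft1ko, Ccl2 and Cxcl14 in Ft1sm22ko, and Ccl22 and Cxcl14 between the mutants, whose means are under 100. With a log2 fold change of at least 1, 17 remained, without Cxcl16 in Ft1ko and Ccl27a in Ft1sm22ko, and 9 receptors and antagonists were called in Ft1sm22ko over WT. Centring on the median of genes with a mean of at least 100 (-0.11, -0.05 and 0.03) kept all 19, left 12 receptors and antagonists called in Ft1sm22ko over WT, 8 higher and 4 lower (without Il10rb, Il18bp and Sigirr, with Cx3cr1), and turned 1 change that was not called, Cxcl14 in Ft1ko, to 0.054. No paired analysis was possible because the tables hold no values per heart, and leaving out each heart was not run for the same reason. Ligands under 10 counts had errors of a size at which a change of 4.77, 3.59 or 3.93 (log2) would have been needed for a call in the 3 comparisons, so that their lack of calls does not show that they did not change.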
